A study of Mus musculus with 3 samples.

Results

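Lef1, Tcf7, Bach2, Satb1, Igfbp4, Dapl1 and Actn1 are 7 of the 56980 genes in the feature lists, and all have been used as marks of naive T cells. They were taken by symbol, 1 row each, and were selected on their levels in T cells of these same libraries, so every difference given for them below describes these libraries and is no independent support. The data are 3 libraries of 10x Genomics single-cell RNA sequencing of wild-type mouse spleen, and each group has 1 of them. The IR_HSO mice received 8.5 Gy of radiation and HSO, which the series title spells out as hemp seed oil, and the IR mice received 8.5 Gy with a control whose label reads "colvent" and may mean the solvent. The control mice were not irradiated, and no label says that they were given that control agent. The sources used here do not give the age of the mice, the time after irradiation, the amount, route or schedule of HSO, or how many mice a library holds. A single library per group allows no test, no p-value and no replicate check, and a difference between libraries cannot be told apart from a difference between groups.

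A naive T cell has left the thymus and has not yet met its antigen. It recirculates between blood and lymphoid organs such as the spleen, and the transcription factors TCF-1 (Tcf7) and LEF-1 (Lef1) keep it in that state and fall when it becomes an effector cell. Bach2 holds back effector genes by competing with AP-1 factors, and Satb1 organises chromatin in developing and mature T cells. Igfbp4 encodes a secreted protein that binds insulin-like growth factors, Actn1 encodes the actin crosslinker alpha-actinin-1, and Dapl1 encodes a small protein related to death-associated protein.

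The promoters of 4 of the genes are printed because their transcripts parted most (Dapl1 and Actn1 on the low side and Igfbp4 on the high side after irradiation) or because the window holds a motif of the group's own factors (Bach2). Sequences are from RefSeq on GRCm38.p6 and show the 250 bases before the annotated start, 5′ to 3′ on the gene's strand. Capitals mark matches, on either strand, to CTTTGA (the core bound by TCF-1 and LEF-1) or CCGGAAG (ETS factors). CCACCC, a box bound by KLF factors, was searched as well and has no match in these windows.
Dapl1, chr2:59484403-59484652, plus strand: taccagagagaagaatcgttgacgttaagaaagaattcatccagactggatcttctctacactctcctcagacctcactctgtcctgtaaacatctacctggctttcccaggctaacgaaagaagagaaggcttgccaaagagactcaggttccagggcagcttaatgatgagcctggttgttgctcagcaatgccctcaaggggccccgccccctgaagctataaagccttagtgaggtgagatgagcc
Actn1, chr12:80260364-80260613, minus strand: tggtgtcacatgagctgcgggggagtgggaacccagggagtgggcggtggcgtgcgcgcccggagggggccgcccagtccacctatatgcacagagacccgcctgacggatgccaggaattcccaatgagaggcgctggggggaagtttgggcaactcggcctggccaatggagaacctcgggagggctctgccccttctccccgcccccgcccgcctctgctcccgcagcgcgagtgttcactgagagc
Igfbp4, chr11:99040994-99041243, plus strand: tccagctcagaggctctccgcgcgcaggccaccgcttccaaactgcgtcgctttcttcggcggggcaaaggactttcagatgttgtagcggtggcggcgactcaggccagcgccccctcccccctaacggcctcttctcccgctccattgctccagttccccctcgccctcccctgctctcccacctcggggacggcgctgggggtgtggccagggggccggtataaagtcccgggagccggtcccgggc
Bach2, chr4:32417185-32417434, plus strand: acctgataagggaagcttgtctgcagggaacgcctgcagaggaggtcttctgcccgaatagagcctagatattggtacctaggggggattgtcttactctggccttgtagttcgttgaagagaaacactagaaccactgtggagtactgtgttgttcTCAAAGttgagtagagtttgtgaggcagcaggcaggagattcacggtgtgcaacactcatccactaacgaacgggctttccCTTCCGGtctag
All 7 genes had windows in the table, 15 in all, since some have several starts. In the first window of each gene, 1 of the 7 held CTTTGA, 1 held CCACCC and 1 held CCGGAAG. Of 32851 windows of that length in the table, 13.8% held CTTTGA, 28.1% CCACCC and 6.91% CCGGAAG. A match is a description of the letters, and binding was not measured here.

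Cells were barcodes with at least 500 unique molecular identifiers (UMIs) and under 10% mitochondrial UMIs. That left 10608 IR_HSO, 12866 IR and 9163 control cells, out of 45636807, 50836313 and 47298108 UMIs per library. T-gated cells held at least 2 UMIs of Cd3d, Cd3e and Cd3g and numbered 6982 in IR_HSO, 8212 in IR and 3731 in control, with medians of 3569, 3587 and 5479 UMIs. T-gated cells with Foxp3, the regulator of regulatory T cells, formed the Foxp3 gate (1551, 871 and 246 cells). The others were split into cells with Cd4 only (CD4 gate, 1970, 2495 and 1201 cells), with Cd8a or Cd8b1 only (CD8 gate, 613, 653 and 1280 cells), with both, or with neither. NK-gated cells with Ncr1 and no Cd3 (1046, 1531 and 337 cells) served as background. Mitochondrial loss was uneven, since 16.5% of IR_HSO barcodes, 4.76% of IR barcodes and 3.75% of control barcodes had 10% or more. Mixed barcodes were too: 1.33%, 1.68% and 14.5% of T-gated cells held at least 2 UMIs of the B cell genes Cd79a and Cd79b. Each pair of libraries shared between 34 and 54 cell barcodes, and their T gates between 6 and 21.

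All 7 genes were found mainly in T cells in the irradiated libraries, while Bach2 and Satb1 were not T cell genes alone. Of all Dapl1 UMIs, 95.3% lay in the T gate in IR_HSO, 96.5% in IR and 98.0% in control. For Bach2 the T gate held 79.3% in IR_HSO, 82.5% in IR and 33.9% in control, where the B gate (Cd79a and Cd79b, no Cd3, no Ncr1) held 55.6%. Satb1 had 23.6% of its control UMIs in the B gate. For Lef1, Tcf7, Igfbp4, Dapl1 and Actn1 the control T gate held 89.5% to 98.0% of UMIs. Such shares move with the number of cells in a gate.

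NK cells, which are not naive T cells, gave the level to read the T cells against. Dapl1 stood there at 0.67, 1.8 and 1.3 CPM (the gene's UMIs per 1000000 UMIs of the gate) in IR_HSO, IR and control, or 3, 9 and 2 UMIs. Actn1 stood at 4.0, 5.5 and 1.3 CPM and Lef1 at 43.5, 55.3 and 75.5 CPM. Tcf7 at 164, 117 and 125 CPM and Satb1 at 288, 254 and 284 CPM were also seen in NK cells. Tcf7 in NK cells was 45.2% of its T gate level in IR_HSO, 36.3% in IR and 27.1% in control, and Satb1 was 79.6% of its T gate level in IR_HSO, 54.6% in IR and 57.0% in control. In NK cells of any library Lef1, Igfbp4, Dapl1 and Actn1 reached at most 17.7% of their T gate level. Tcf7, Bach2 and Satb1 reached 27.1% to 82.3% of it there. Since the genes were selected on their levels in T cells of these libraries, these shares are no test of the label of a T cell program.

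Among the transcription factors, Lef1 differed most in the T gate between IR_HSO and each other library. Lef1 stood at 246 CPM [241, 252] in IR_HSO, 368 [362, 374] in IR and 510.0 [501, 519] in control (exact Poisson 95% intervals, which like all intervals here cover counting error only). Control was highest and IR_HSO lowest, with intervals that did not overlap. The ratio was 0.483 [0.469, 0.497] for IR_HSO against control, 0.721 [0.703, 0.739] for IR against control and 0.670 [0.651, 0.689] for IR_HSO against IR (exact conditional intervals).

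Tcf7, the partner of Lef1 in the same family, followed another order. Tcf7 stood at 362 CPM [356, 369] in IR_HSO, 322 [316, 328] in IR and 462 [453, 471] in control. Control was again highest, but IR was lowest, and the IR_HSO level was 1.13-fold [1.1, 1.16] that of IR. Tcf7 was 1.27-fold lower in IR_HSO and 1.43-fold lower in IR than in control. The gap between IR and control was the widest of the 4 factors.

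Bach2 and Satb1 stood lower in IR_HSO than in the other libraries, by less than 1.5-fold. Bach2 stood at 51.9 CPM [49.4, 54.6] in IR_HSO, 61.0 [58.5, 63.7] in IR and 77.7 [74.2, 81.4] in control. Satb1 stood at 361 CPM [355, 368] in IR_HSO, 466 [459, 473] in IR and 498 [489, 507] in control. For Satb1, IR lay close to control with a ratio of 0.935 [0.913, 0.957]. In the control B gate Bach2 reached 183 CPM and Satb1 252 CPM, and the control T gate held the larger share of barcodes with B cell genes. Both genes were uncalled in the T gate with and without those barcodes, so the calls cannot show what the barcodes add. In T-gated cells with none of Foxp3, Cd4, Cd8a or Cd8b1 seen, leaving them out moved the Bach2 log2 ratio to control. It went from -0.68 to -0.53 in IR_HSO and from -0.60 to -0.44 in IR.

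Igfbp4 went the other way from the other genes. It stood at 249 CPM [244, 255] in IR_HSO, 412 [405, 419] in IR and 129 [124, 133] in control. Both irradiated libraries were higher than control, 1.94-fold [1.86, 2.02] in IR_HSO and 3.20-fold [3.08, 3.33] in IR, and IR_HSO stood at 0.605 [0.588, 0.622] of IR. In NK cells Igfbp4 was at 22.9, 26.6 and 0.64 CPM, the last from 1 UMI, and in B cells at 7.8, 9.6 and 2.0 CPM.

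Dapl1 showed the widest gap. It stood at 13.6 CPM [12.4, 15] in IR_HSO, 39.4 [37.4, 41.5] in IR and 285 [278, 292] in control, from 410, 1408 and 6534 UMIs. Dapl1 was 20.9-fold lower in IR_HSO than in control (ratio 0.0478 [0.0432, 0.0529]) and 7.24-fold lower in IR than in control (ratio 0.138 [0.130, 0.146]). Between the irradiated libraries IR_HSO was 2.89-fold lower than IR (ratio 0.346 [0.309, 0.387]). All 3 T gate levels lay above those of NK cells.

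Actn1 had the same order with a smaller gap. It stood at 52.6 CPM [50.1, 55.3] in IR_HSO, 73.2 [70.4, 76.0] in IR and 175 [169, 180] in control. Actn1 was 3.32-fold lower in IR_HSO and 2.39-fold lower in IR than in control, and its ratio of IR_HSO to IR was 0.719 [0.675, 0.766].

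**Figure D1:**
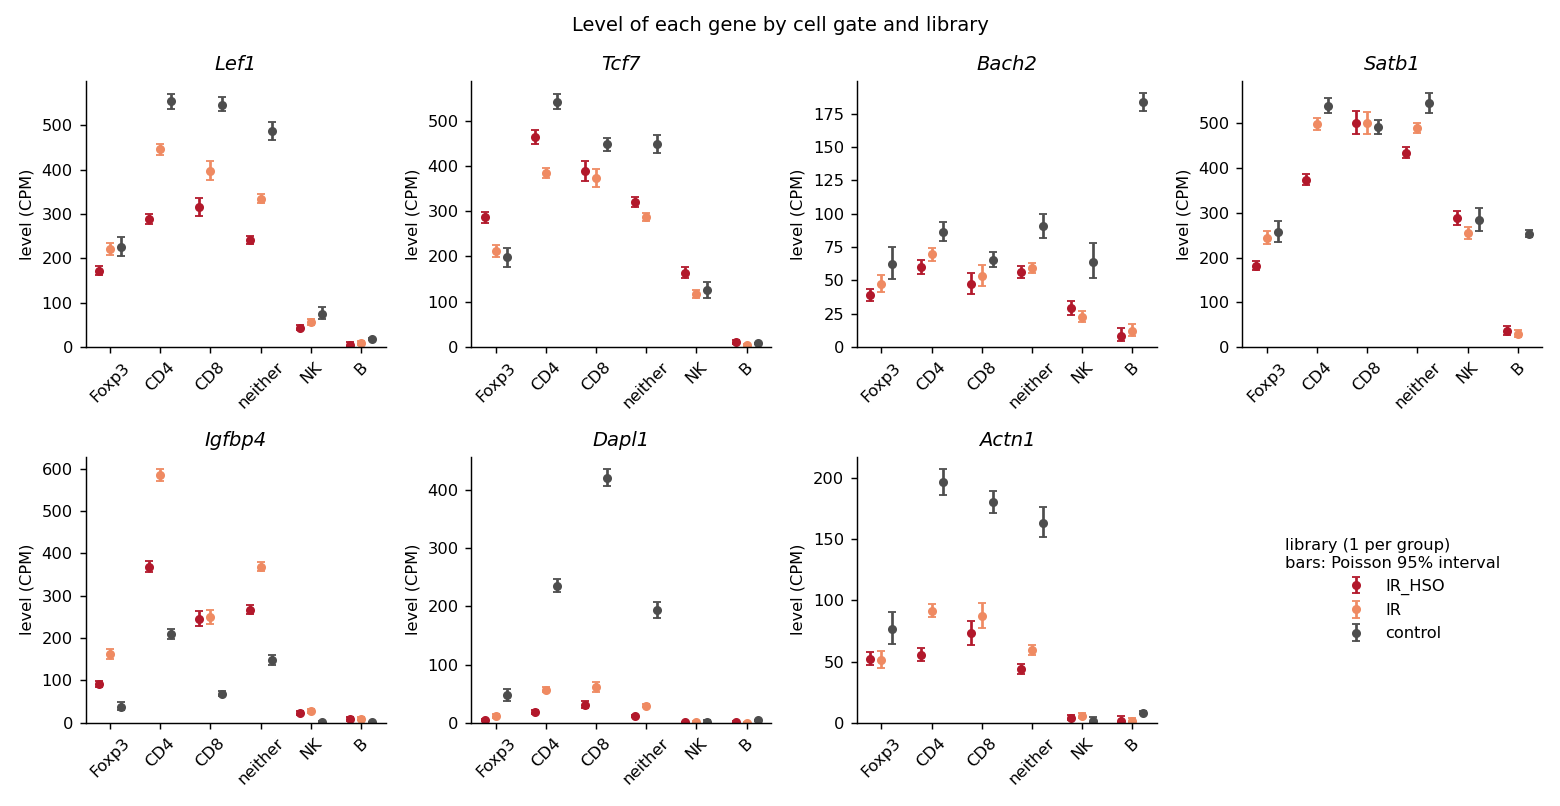
Level of each gene (y axes, CPM) by cell gate (x axes) in the IR_HSO, IR and control libraries, with exact Poisson 95% intervals as bars. Dapl1 and Actn1 are highest in control in every T cell gate, Igfbp4 is lowest in control in every T cell gate, and Bach2 and Satb1 are also seen in the control B gate at 183 and 252 CPM.

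Counted at a fold of 1.5 on CPM + 1, 1 gene of the 7 was higher and 3 were lower in IR_HSO than in control (Igfbp4 higher, Lef1, Dapl1 and Actn1 lower). Of all 10566 genes past the same low-value filter, 17.2% were higher and 6.31% lower. In IR against control 1 was higher and 2 were lower (Igfbp4 higher, Dapl1 and Actn1 lower), beside 10.5% and 3.86% of 10367 genes. In IR_HSO against IR none was higher and 2 were lower (Igfbp4 and Dapl1), beside 6.48% and 4.73% of 10508 genes. Since the genes were chosen with these comparisons in view, nothing is read from the counts. All 7 passed the low-value filter in the T gate. The first 2 comparisons share the control library, and the comparison of IR_HSO with IR shares a library with each of them.

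The log2 ratios of the 7 genes (CPM + 1) had medians of -0.57, -0.47 and -0.47 in IR_HSO against control, IR against control and IR_HSO against IR, where all genes had 0.14, 0.10 and 0.04. Just outside the fold of 1.5 lay Lef1 in IR_HSO against IR at -0.58 and Bach2 in IR_HSO against control at -0.57, and just inside it lay Igfbp4 in IR_HSO against IR at -0.72. Relative to the median of all genes, Bach2 and Satb1 in IR_HSO against control, Tcf7 in IR against control and Lef1 in IR_HSO against IR also passed the fold. For Dapl1, 12 of the 10566 genes had a lower ratio in IR_HSO against control and 38 of 10367 in IR against control. For Igfbp4, 242 of 10367 had a higher ratio in IR against control.

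**Figure D2:**
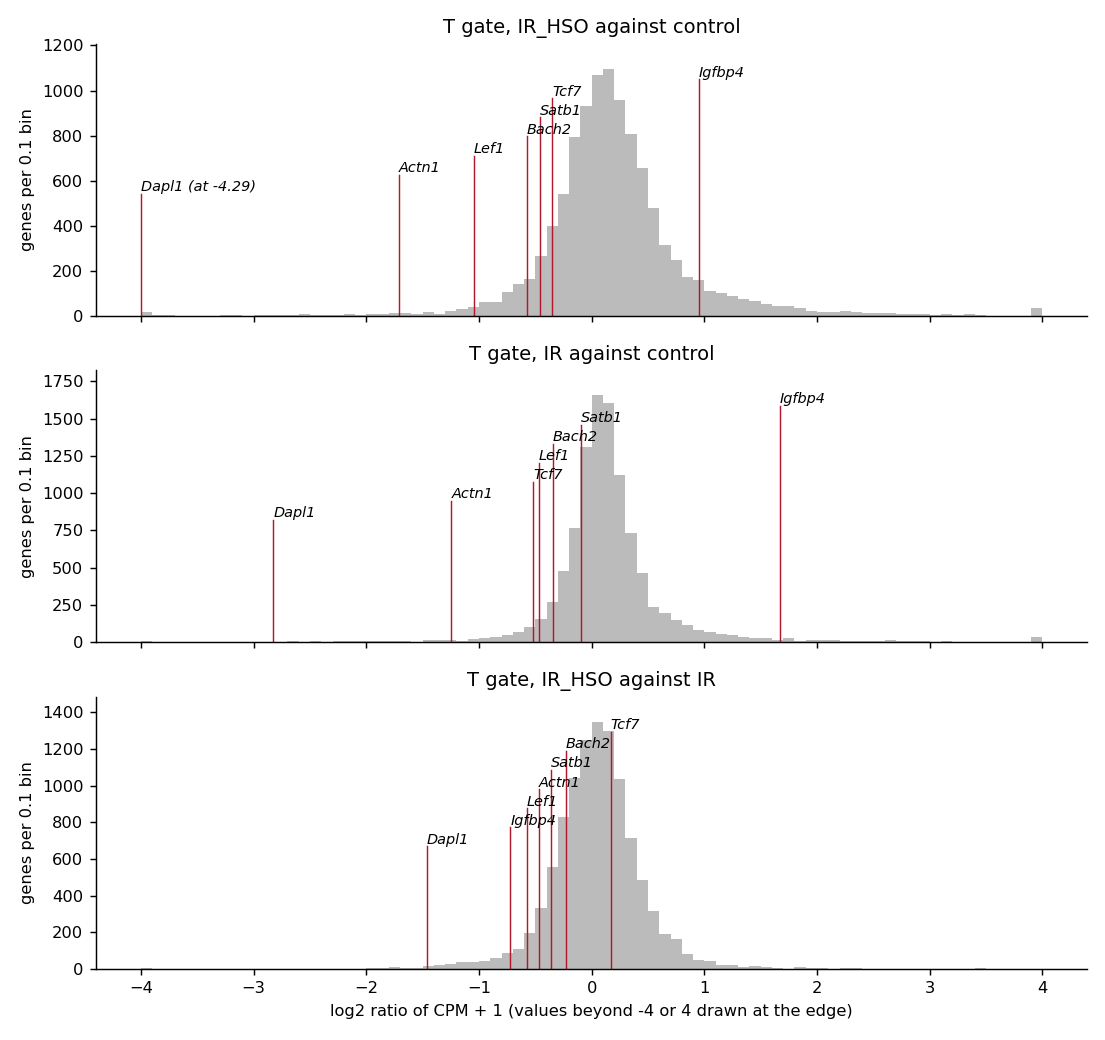
Log2 ratio of CPM + 1 in the T gate (x axis) of all genes past the low-value filter (grey, number of genes per bin on the y axis) and of the 7 genes (red lines, whose height has no meaning), for the 3 comparisons. Dapl1 at -4.29 and Actn1 at -1.71 lie in the low tail and Igfbp4 at 0.95 lies on the high side in IR_HSO against control.

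The make-up of the T gate differed between libraries. Foxp3-gated cells were 22.2% of T-gated cells in IR_HSO, 10.6% in IR and 6.59% in control, and CD8-gated cells were 8.78%, 7.95% and 34.3%. Depth touches such shares, so cells thinned to 1000 UMIs were gated again, which gave 10.3%, 5.25% and 2.15% for Foxp3 and 5.98%, 5.23% and 27.2% for CD8. The Foxp3 gate had the lowest level of Lef1, Tcf7, Bach2, Satb1, Igfbp4 and Dapl1 among the Foxp3, CD4, CD8 and neither gates in all 3 libraries, and Dapl1 was highest in the CD8 gate in all 3. Weighting the gates of each library as in control moved the ratios of IR_HSO to control to 0.553 for Lef1, 0.857 for Tcf7, 0.677 for Bach2 and 0.846 for Satb1. The same step gave 2.17 for Igfbp4, 0.0700 for Dapl1 and 0.343 for Actn1. No gene changed its side of 1 in this step, and Dapl1 remained the lowest.

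Within CD4-gated cells the order of the libraries was that of the whole T gate for each of the 7 genes. In cells thinned to 1000 UMIs and gated again it turned between IR and control for Bach2 (log2 ratio 0.12, against -0.31 as measured) and Satb1 (0.06, against -0.11). Lef1 stood at 288 CPM in IR_HSO, 446 in IR and 553 in control, Dapl1 at 18.7, 56.4 and 236, and Actn1 at 55.7, 91.6 and 196. Among the Foxp3, CD4, CD8 and neither gates Igfbp4 was highest in the CD4 gate in every library, at 369 CPM in IR_HSO, 584 in IR and 209 in control. In the CD4 gate 1 gene was higher and 3 were lower in IR_HSO than in control, beside 18.8% and 6.65% of all genes, and 1 was higher and 2 were lower in IR than in control, beside 11.7% and 4.29%. In IR_HSO against IR none was higher and 4 were lower (Lef1, Igfbp4, Dapl1 and Actn1), beside 8.99% and 6.6% of all genes. Lef1 there was at a log2 ratio of -0.63, and at -0.56 when mitochondrial, ribosomal, immunoglobulin and pancreatic genes were left out of the total. Actn1 was at -0.71, and at -1.40 in thinned cells.

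Within CD8-gated cells at full depth Satb1 was level and Igfbp4 did not part the irradiated libraries. Satb1 stood at 501 CPM [477, 527] in IR_HSO, 500.2 [476, 525] in IR and 491 [477, 507] in control, with overlapping intervals. In thinned cells its log2 ratio of IR_HSO was 0.42 against control and 0.32 against IR, where full depth gave 0.029 and 0.003. Igfbp4 stood at 246 CPM [228, 264] in IR_HSO, 249 [232, 267] in IR and 68.8 [63.3, 74.6] in control, and both irradiated libraries were above control, 3.57-fold [3.20, 3.98] in IR_HSO and 3.62-fold [3.25, 4.03] in IR. The ratio of IR_HSO to IR was 0.986 [0.892, 1.09]. Dapl1 was at 30.9 CPM [25.0, 37.7] in IR_HSO, 61.1 [53.0, 70.1] in IR and 422 [408, 436] in control. In the CD8 gate 1 gene was higher and 3 were lower in IR_HSO than in control (Igfbp4 higher, Lef1, Dapl1 and Actn1 lower), beside 17.6% and 6.84% of all genes. In IR against control 1 was higher and 2 were lower, beside 13.4% and 4.79%, and in IR_HSO against IR none was higher and 1 was lower (Dapl1), beside 8.29% and 7.92%. The Lef1 call in this gate did not hold in thinned cells, at a log2 ratio of -0.48 against -0.79 as measured.

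In Foxp3-gated cells the order of the libraries for Tcf7 differed between full depth and thinned cells, where few Tcf7 UMIs were left. Tcf7 stood at 287 CPM [275, 299] in IR_HSO, 212 [199, 226] in IR and 198 [178, 220] in control, so IR_HSO was highest at full depth, 1.45-fold [1.29, 1.63] above control and 1.35-fold [1.25, 1.46] above IR. In cells thinned to 1000 UMIs and gated again (398, 265 and 49 cells), 109, 76 and 14 Tcf7 UMIs were counted. The log2 ratios there were -0.06 for IR_HSO against control and -0.07 against IR, where full depth gave 0.53 and 0.44. No interval was computed for these thinned ratios. Thinning also changed which cells were in the gate, and the part of depth alone was not tested. Lef1 was at 172 CPM [163, 182] in IR_HSO, 220 [206, 234] in IR and 226 [204, 249] in control, where IR and control overlapped. Dapl1 rested on 36, 51 and 83 UMIs (4.77, 11.6 and 47.1 CPM), and Actn1 stood at 52.2, 51.5 and 76.5 CPM. The Dapl1 ratios of this gate have no footing in thinned cells, where IR and control held 0 Dapl1 UMIs. In the Foxp3 gate 1 gene was higher and 2 were lower in IR_HSO than in control (Igfbp4 higher, Bach2 and Dapl1 lower), beside 17.0% and 10.9% of all genes. Igfbp4 there was at a log2 ratio of 1.23. In thinned cells it was at 1.88, where control held 1 Igfbp4 UMI in 49 cells. In IR against control Igfbp4 was higher and Dapl1 lower, beside 10.6% and 9.39%, and in IR_HSO against IR none was higher and 2 were lower (Igfbp4 and Dapl1), beside 8.17% and 5.58%.

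T-gated cells with none of Foxp3, Cd4, Cd8a or Cd8b1 seen were 38.9% of T-gated cells in IR_HSO, 48.4% in IR and 22.6% in control, and 68.3%, 74.7% and 57.9% after thinning, so this gate grows where depth is lower. Lef1 stood there at 241 CPM in IR_HSO, 334 in IR and 486 in control, Dapl1 at 11.7, 28.9 and 194, and Igfbp4 at 267, 369 and 148. In this gate 1 gene was higher and 4 were lower in IR_HSO than in control, beside 16.6% and 7.7% of all genes, and likewise in IR against control, beside 11.3% and 5.86%. The 4 were Bach2, Dapl1 and Actn1 in both comparisons, with Lef1 in the first and Tcf7 in the second. The calls of Bach2 and Tcf7 did not hold in cells thinned to 1000 UMIs. The log2 ratios there were -0.26 and -0.07 for Bach2 in IR_HSO and IR against control and -0.51 for Tcf7 in IR against control. With barcodes that held B cell genes left out, the Bach2 calls did not hold either, at -0.53 and -0.44. In IR_HSO against IR none was higher and 1 was lower (Dapl1), beside 5.66% and 4.62%.

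**Figure D3:**
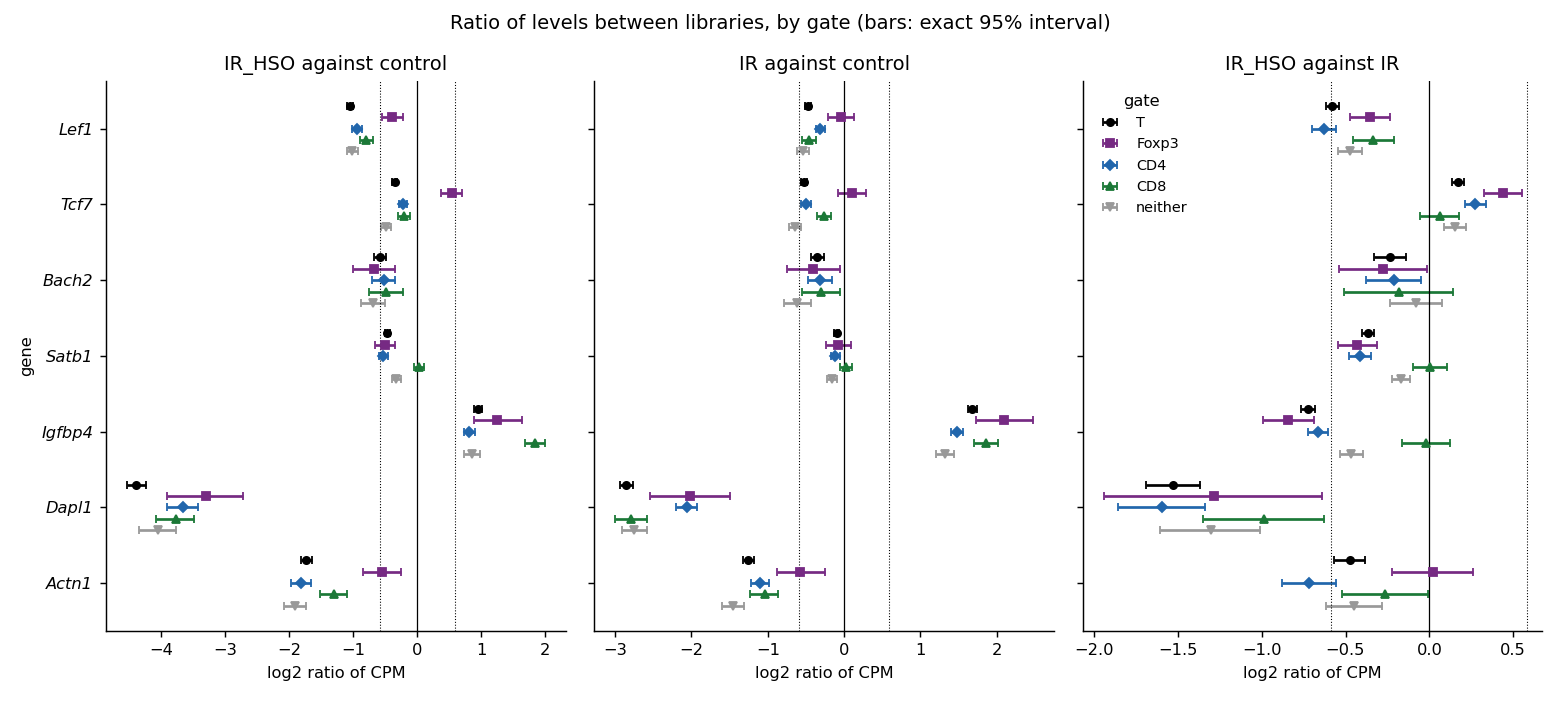
Log2 ratio of CPM (x axes) of each gene (y axis) in the T gate and its Foxp3, CD4, CD8 and neither gates for the 3 comparisons, with exact 95% intervals as bars and dotted lines at a fold of 1.5. Igfbp4 lies above 0 and Dapl1 below it in all gates in both comparisons with control. Tcf7 in the Foxp3 gate lies apart from the other gates in IR_HSO against control at this full depth. In thinned cells it was at -0.06 (not plotted), from 14 Tcf7 UMIs in control.

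Counting cells instead of UMIs gave the same order of the libraries for each gene once every cell was thinned to 1000 UMIs. At that depth 91, 229 and 15 shallower T-gated cells were left out. Dapl1 was then seen in 1.07% [0.844, 1.35] of IR_HSO, 2.68% [2.34, 3.06] of IR and 18.5% [17.3, 19.8] of control T cells (exact Clopper-Pearson 95% intervals). NK cells with a Dapl1 UMI were 0 of 991 in IR_HSO (upper limit of the interval 0.372%), 0.146% in IR and 0.303% in control. The median depths of NK cells before thinning were 3688.5, 2899 and 4106 UMIs. T cells with a Lef1 UMI made up 22.2% in IR_HSO, 29.9% in IR and 39.8% in control, against 3.83%, 5.46% and 8.48% of NK cells. For Igfbp4 the T cell shares were 16.4%, 25.7% and 11.5%. The NK cell shares were 2.02%, 2.33% and 0 of 330 cells, the last with an upper limit of 1.11%. Without thinning, Lef1 was seen in 50.7%, 59.9% and 82.1% of T-gated cells and Dapl1 in 3.19%, 6.89% and 39.1%. Igfbp4 was seen in 29.0%, 42.8% and 30.6% without thinning, so that IR_HSO did not lie above control, unlike its CPM and its thinned share.

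The share of T cells with Satb1 did not lie above that of NK cells in IR_HSO. Satb1 was seen in 27.5% [26.5, 28.6] of IR_HSO, 35.4% [34.3, 36.4] of IR and 38.5% [37.0, 40.1] of control T cells, against 29.2% [26.3, 32.1], 23.7% [21.5, 26.1] and 22.7% [18.3, 27.6] of NK cells. At this depth a T-gated cell held UMIs of 1.07 of the 7 genes on average in IR_HSO, 1.34 in IR and 1.70 in control. Cells with none of the 7 were 38.0%, 28.7% and 18.6% of T-gated cells, and 56.5%, 62.1% and 59.7% of NK cells. T-gated cells with at least 3 of the 7 were 12.2%, 17.9% and 25.8%.

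**Figure D4:**
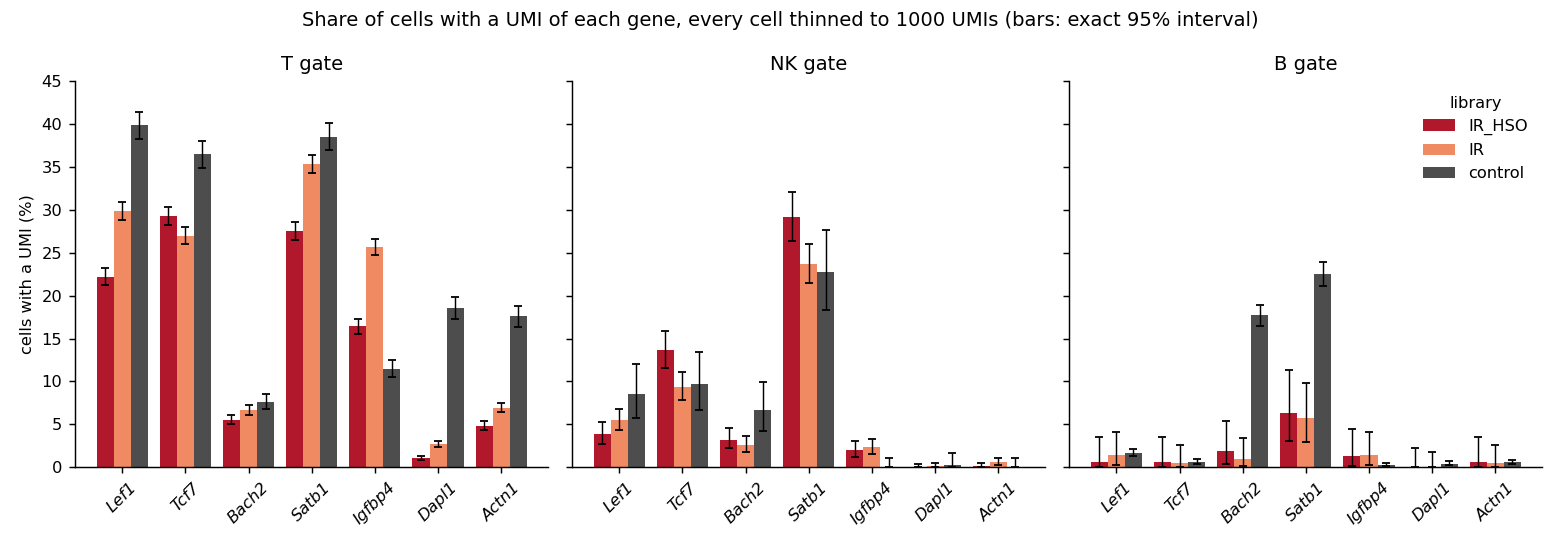
Share of T-, NK- and B-gated cells with a UMI of each gene (y axis, %) after thinning every cell to 1000 UMIs, in IR_HSO, IR and control, with exact 95% intervals. Dapl1 and Actn1 are near 0 outside the T gate, Satb1 is also seen in 22.7% to 29.2% of NK cells, and Bach2 in 17.7% of control B cells.

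The CD8 and CD4 gates each hold naive and effector cells, so both were split by effector transcripts. Ccl5, a chemokine of effector and memory CD8 cells, was seen in 70.3% of CD8-gated cells in IR_HSO, 73.2% in IR and 32.1% in control, or 37.7%, 41.3% and 16.6% after thinning. Ccl5 also stood at 98.9, 112 and 35.1 CPM in the B gate, and the part of free RNA in this split was not tested. Of the 7 genes, Lef1, Bach2, Satb1, Igfbp4 and Actn1 were higher in CD8 cells without Ccl5 than in those with it in all 3 libraries, with intervals above 1. The cells without Ccl5 were shallower, with medians of 3406, 3966 and 5785 UMIs against 4915, 4713.5 and 7143. In thinned cells the Lef1 interval stayed above 1 in each library, but the ratio of Bach2 in IR was 0.791 [0.271, 2.36]. The thinned intervals of Bach2 and Actn1 in each library, and of Satb1 and Igfbp4 in control, reached below 1. Tcf7 was 1.49-fold [1.31, 1.69] and 1.41-fold [1.25, 1.60] higher without Ccl5 in IR_HSO and IR and 1.06-fold [0.992, 1.13] in control. Dapl1 was 1.39-fold [1.0, 1.89] higher without Ccl5 in IR and 1.62-fold [1.5, 1.74] in control, but in IR_HSO its ratio was 0.370 [0.164, 0.736], from 13.3 CPM without and 35.8 CPM with Ccl5. That low level rests on 9 UMIs, and in thinned cells the ratio was 1.21 [0.173, 13.4], from 4 and 2 UMIs.

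In CD8 cells without Ccl5 (182, 175 and 869 cells), the 4 transcription factor genes lay closer to control than Dapl1 and Igfbp4 did. Lef1 stood at 509 CPM in IR_HSO, 610 [555, 669] in IR and 643 [621, 665] in control. IR and control overlapped (ratio 0.949 [0.859, 1.05]), and IR_HSO lay below control at full depth (ratio 0.793 [0.708, 0.886]). In thinned cells the Lef1 ratio of IR_HSO was 0.878 [0.688, 1.11] to control and 1.03 [0.760, 1.39] to IR. Satb1 stood higher after irradiation, at 655, 652 and 520 CPM (1.26-fold [1.14, 1.39] in IR_HSO and 1.25-fold [1.14, 1.38] in IR). Tcf7 stood at 524, 482 and 458 CPM and Bach2 at 81.0, 69.9 and 72.2 CPM, where the Bach2 intervals overlapped. Dapl1 stood at 13.3, 77.9 and 493 CPM, 37.2-fold lower in IR_HSO (ratio 0.0269 [0.0123, 0.0511], from 9 UMIs) and 6.33-fold lower in IR than in control. In thinned cells the Dapl1 gap between IR_HSO and control was 16.7-fold (ratio 0.0597 [0.0161, 0.155]). Igfbp4 stood at 514, 478 and 96.3 CPM, 5.34-fold [4.64, 6.13] and 4.97-fold [4.33, 5.70] above control, or 3.97-fold [2.72, 5.80] and 3.09-fold [2.08, 4.59] in thinned cells. Actn1 stood at 122, 141 and 203 CPM in IR_HSO, IR and control. Its ratio to control was 0.601 [0.475, 0.752] in IR_HSO and 0.694 [0.563, 0.849] in IR, or 0.626 [0.379, 0.989] and 0.581 [0.352, 0.919] in thinned cells.

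CD4-gated cells were split by S100a4, S100a6 or Ccl5, which mark effector and memory cells. Cells with any of them were 67.0% of the gate in IR_HSO, 72.9% in IR and 27.8% in control, and 39.0%, 43.9% and 17.1% after thinning. In the cells without them (650, 676 and 867 cells), Bach2 was level at 101, 97.8 and 102 CPM, with ratios to control of 0.984 [0.837, 1.15] in IR_HSO and 0.957 [0.818, 1.12] in IR. In thinned cells the Bach2 ratio of IR_HSO to control was 0.644 [0.335, 1.24]. Tcf7 was at 584 CPM in IR_HSO, 456 in IR and 572 in control, and IR_HSO did not part from control beyond counting error (ratio 1.02 [0.955, 1.09]). Lef1 was at 443, 629 and 680 CPM, or 1.53-fold lower in IR_HSO and 1.08-fold lower in IR than in control. In thinned cells its ratio to control was 0.446 [0.350, 0.565] in IR_HSO and 0.648 [0.527, 0.799] in IR, so IR lay further below control there. Satb1 was at 547 CPM in IR_HSO, 615 in IR and 658 in control. Its ratio to control was 0.832 [0.778, 0.889] in IR_HSO and 0.935 [0.879, 0.993] in IR, or 0.573 [0.444, 0.738] and 1.06 [0.855, 1.31] in thinned cells. Dapl1 at 22.1, 79.2 and 284 CPM and Actn1 at 88.3, 134 and 234 CPM kept the order of the whole gate, and Igfbp4 stood at 633, 844 and 267 CPM.

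CD4-gated cells with effector transcripts (1320, 1819 and 334 cells) had another order for Lef1, Satb1 and Bach2. Lef1 stood there at 230.2 CPM in IR_HSO, 393 in IR and 304 in control, so IR was 1.29-fold [1.19, 1.40] above control and IR_HSO below it (ratio 0.758 [0.692, 0.830]). Satb1 stood at 308 CPM in IR_HSO, 465 in IR and 305 in control, 1.52-fold [1.41, 1.65] above control in IR, with a ratio of 1.01 [0.928, 1.1] in IR_HSO. Bach2 stood at 44.7 CPM in IR_HSO, 61.3 in IR and 55.1 in control, with a ratio of IR to control of 1.11 [0.918, 1.36]. In the whole CD4 gate IR lay below control for Lef1, Satb1 and Bach2. In thinned cells, where control held 48 such cells, IR against control was 1.63-fold [0.877, 3.34] for Lef1 and 3.30-fold [1.48, 9.17] for Satb1. The thinned ratio of IR_HSO to control was 0.911 [0.466, 1.94] for Lef1 and 1.60 [0.682, 4.58] for Satb1. Those control cells held 0 Bach2 UMIs.

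**Figure D5:**
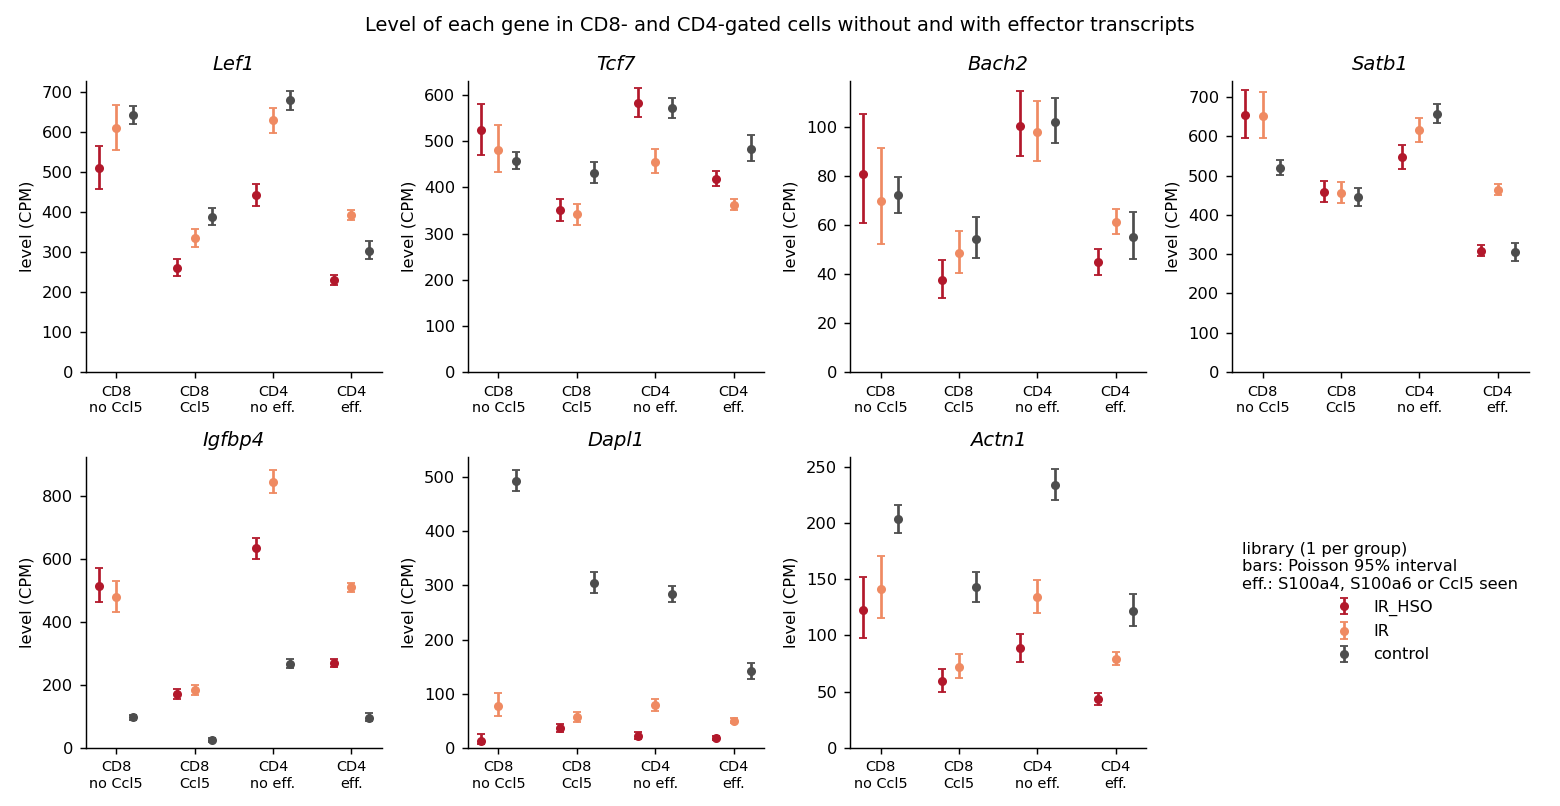
Level of each gene (y axes, CPM, exact Poisson 95% intervals) in CD8-gated cells without and with Ccl5 and in CD4-gated cells without and with S100a4, S100a6 or Ccl5 (x axes) in IR_HSO, IR and control. Lef1 and Igfbp4 are higher in cells without effector transcripts in every library, and Dapl1 is at 13.3 CPM (9 UMIs) in IR_HSO CD8 cells without Ccl5 against 493 CPM in control.

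In the CD4 gate Lef1 was higher in the cells that held Igfbp4, which in the CD8 gate was seen in the irradiated libraries. Among CD4-gated cells thinned to 1000 UMIs, Lef1 was 2.56-fold [1.82, 3.55] higher in cells with an Igfbp4 UMI than in cells without one in IR_HSO, 1.78-fold [1.42, 2.23] in IR and 1.86-fold [1.27, 2.66] in control, over 98, 234 and 35 cells with Igfbp4. Satb1 was 4.45-fold [3.24, 6.11], 2.11-fold [1.72, 2.59] and 1.44-fold [0.885, 2.24] higher in those cells. Tcf7 was 1.37-fold [1.02, 1.83] higher in IR_HSO, while its ratios of 0.966 and 0.856 in IR and control had intervals on both sides of 1. Among CD8-gated cells the Lef1 ratios were 1.76 [1.15, 2.66], 2.0 [1.34, 2.93] and 1.07 [0.741, 1.5]. Satb1 at 1.31, 0.809 and 0.970 had intervals on both sides of 1 there, and Tcf7 in control was lower in cells with Igfbp4, at 0.537 [0.297, 0.901].

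Markers of other cells moved with the libraries. The summed level of 5 stromal markers (Col1a1, Col1a2, Col3a1, Dcn, Pdgfrb), cells that can express Igfbp4, was 77.0 CPM in IR_HSO, 147 in IR and 0.087 in control in the T gate, where Col1a2, Col3a1 and Pdgfrb were at 0 in control. In the NK gate that sum was as high or higher, at 189 and 173 CPM in IR_HSO and IR and 0 in control, and Igfbp4 there was 9.18% and 6.45% of its T gate level in IR_HSO and IR. The sum of 5 NK markers in the T gate was 261, 365 and 64.8 CPM, and with the T-gated barcodes that held Ncr1 left out every called ratio of the 7 genes in the T gate stayed called. The sum of 5 B cell markers was 34.9, 50.5 and 468 CPM, that of 5 plasma cell markers 1550, 1909 and 571 CPM, that of 5 myeloid markers 7.82, 11.1 and 84.9 CPM, and that of 5 erythroid markers 0.832, 0.924 and 385 CPM. The sum of 5 acinar markers was 476, 1159 and 2.27 CPM, and that of 5 platelet markers 1.73, 1.71 and 1.09 CPM. Dapl1 was at most 3.9 CPM in the B gate of any library. The 5 T cell markers summed to 2456, 2931 and 2833 CPM. The part of these other cells in the levels of the 7 genes was not tested beyond these values.

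Across the Foxp3, CD4, CD8, neither, NK and B gates of the 3 libraries, 18 points that share libraries and depth, the 7 genes were more alike in pairs than as a whole. The Pearson correlation of log2(CPM + 1) was 0.940 for Lef1 and Tcf7, 0.930 for Actn1 and Dapl1 and 0.912 for Actn1 and Lef1, and 0.220 for Bach2 and Igfbp4, the lowest pair. Of 4697 genes with at least 50 CPM in a point, those most like Tcf7 included Slco3a1 (0.987) and Clip1 (0.980). Those most like Actn1 were Als2cl (0.973), Themis (0.969), a T cell development gene, and Art2b (0.963). Those most like Dapl1 were Tdrp (0.969), Npc2 (0.964) and the ribosomal protein gene Rplp0 (0.963), and those most like Igfbp4 were Pdlim4 (0.932), Slfn1 (0.927) and Inpp4b (0.919).

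For Lef1 these were Gm42449 (0.979), Ms4a6b (0.973) and Lat (0.972), the adaptor below the T cell receptor, and for Bach2 they were 9930111J21Rik2 (0.968), the transcription factor gene Foxp1 (0.966) and 4930523C07Rik (0.959). Those of Satb1 were C230085N15Rik (0.997), 5830444F18Rik (0.995) and Gm37248 (0.994). In the GENCODE M21 annotation of GRCm38, Gm42449 lies on the strand of Lef1 within its span and the last 3 lie likewise within Satb1. Reads of these may be split between the pair in the authors' counting, so the values of Lef1 and Satb1 are uncertain to that extent. In the T gate Gm42449 stood at 31.8, 32.0 and 44.3 CPM in IR_HSO, IR and control, and C230085N15Rik at 89.8, 117 and 136 CPM.

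The wider pathway was read from lists drawn up with earlier results of these data known. Of 20 other naive and homing genes in the T gate, 1 was higher, 8 were lower and 11 lay between in IR_HSO against control, with a median log2 ratio of -0.52 where all genes had 0.14. Of all genes, 17.2% were higher and 6.31% lower. Il7r, the receptor for the survival cytokine IL-7, was 2.08-fold higher, and the lowest were Rflnb (3.55-fold), the gut-homing receptor Ccr9 (3.06-fold), Ly6c1 (2.41-fold), Id3 (2.32-fold) and Als2cl (2.16-fold). In IR against control 4 of the 20 were lower and 16 lay between, with a median of -0.37, where 3.86% of all genes were lower. Those 4 were Rflnb (2.62-fold), Ccr9 (1.98-fold), Als2cl (1.95-fold) and Ly6c1 (1.77-fold). In IR_HSO against IR 3 were lower and 17 lay between, with a median of -0.15 and 4.73% of all genes lower, namely Id3 (1.67-fold), Klf2 (1.57-fold), a factor that keeps naive cells recirculating, and Ccr9 (1.54-fold). Within the Foxp3, CD4, CD8 and neither gates the medians of the 20 were -0.36, -0.39, -0.24 and -0.47 in IR_HSO against control. They were -0.33, -0.13, -0.19 and -0.45 in IR against control and -0.08, -0.17, 0.03 and -0.03 in IR_HSO against IR. The part of the make-up of the T gate in its medians was not tested.

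Effector and memory genes stood on the other side in the T gate in both comparisons with control. Of 22, 14 were higher, 1 was lower and 7 lay between in IR_HSO against control, with a median of 0.95, beside 17.2% and 6.31% of all genes. In the Foxp3 gate 8 of 21 were higher and 4 were lower in that comparison, with a median of -0.05, beside 17.0% and 10.9% of all genes. The highest of the T gate in that comparison were the cytokine receptor chain Il2rb (5.33-fold) and Prdm1 (3.97-fold), which encodes Blimp-1. Rora (3.01-fold), Id2 (2.95-fold) and Ccl5 (2.83-fold) came next in the T gate, and Eomes was 1.68-fold lower there. In IR against control 14 of 21 were higher and 7 lay between, with a median of 0.76 and 10.5% of all genes higher, led by Ccr2 (4.08-fold), Il2rb (3.84-fold), Id2 (3.60-fold), Ccl5 (3.07-fold) and Prdm1 (2.82-fold). In IR_HSO against IR 2 of 22 were higher (Gzmk and Maf), 3 were lower (Cxcr6, Lgals1 and Ccr2) and 17 lay between, with a median of -0.08, beside 6.48% and 4.73% of all genes. The gates differed in that comparison. In the CD4 gate 8 of 22 were higher and 4 lower, beside 8.99% and 6.6% of all genes. In the Foxp3 gate 1 of 21 was higher and 6 lower (8.17% and 5.58%). In the CD8 gate 0 of 21 were higher and 5 lower (8.29% and 7.92%), and in the neither gate 0 of 20 and 4 (5.66% and 4.62%). Ccl5 stood at 10283, 10418 and 10318 CPM in the NK gate and the NK marker sums of the T gate were higher in both irradiated libraries. Their part in the effector and memory counts was not tested.

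Partners of TCF-1 and LEF-1 and other Wnt pathway genes lay mostly between. Of 25 listed, 19 passed the filter in IR_HSO against control, where 3 were lower and 16 lay between, with a median of -0.10, beside 6.31% of all genes lower. The 3 were the corepressor genes Tle1 (2.58-fold) and Tle4 (1.57-fold) and the coactivator gene Bcl9l (1.56-fold). In IR against control 1 of 19 was lower (Tle1, 1.63-fold), with a median of -0.07 beside 3.86% of all genes lower, and in IR_HSO against IR all 18 that passed the filter lay between, with a median of -0.03.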

How the data were processed

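The authors deposited matrices of raw UMI counts, genes by barcodes. Per the file headers they came from Cell Ranger 7.0.1, and GRCm39 is the build in the submitters' processing notes. The annotation release is not given in the sources used here, and the raw reads and uncalled droplets were not used here. The 7 genes, the gene lists and the gates were chosen with earlier results of these data known. Counts were summed per library and gate and scaled to the gate's total as CPM, with numpy 2.4.6, scipy 1.17.1 and pandas 2.3.3 in Python 3.11.15. Log2 ratios added 1 CPM to both sides. A gene was counted as higher or lower at a fold of 1.5 where it had at least 5 CPM in either library and at least 20 UMIs over both. With 1 library per group no test was run. Intervals are at 95%, cover counting error only, and UMIs of 1 cell are not independent. Doublets were not called with a tool; leaving out T-gated barcodes with B cell genes was an alternative. Gates rest on single transcripts, so a cell whose Cd4, Cd8a, Cd8b1 or Foxp3 was missed falls into another gate. Thinning drew 1000 UMIs per cell with a fixed seed. The ratio and fold rule were tested on simulated data. Beside the 7 genes, the text names for each of them the 3 genes of highest correlation, and from each list up to 5 genes per direction past the fold by size of ratio; the overlapping genes and those named with a list's 1 exception follow from this. One of the genes that this rule names is not reported here.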

Additional observations from a re-analysis of the deposited data

Results flagged for a closer look

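Tcf7 in IR_HSO against control was higher in the Foxp3 gate and lower in the CD4, CD8 and neither gates at full depth. The log2 ratio in the Foxp3 gate exceeded that in the CD4 gate by 0.76, that in the CD8 gate by 0.74 and that in the neither gate by 1.02. These differences drew attention because the gates moved in opposite directions. In cells thinned to 1000 UMIs and gated again they did not, since the log2 ratio was -0.06 in the Foxp3 gate (0.53 at full depth), -0.21 in the CD4 gate, -0.08 in the CD8 gate and -0.31 in the neither gate. Each value rests on 1 library per group, and the difference was not tested. The Foxp3 gate held 1551 cells in IR_HSO and 246 in control at full depth. In thinned cells it held 398 and 49 cells, with 109 and 14 Tcf7 UMIs.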

How the results depend on the processing

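Over 12 other settings, all planned ones included, the 21 log2 ratios of the 7 genes in the T gate kept each of their 9 calls. The setting without the low-value filter could not move these ratios, since it changes only the counts over all genes. Over all gates 38 of 46 calls held under every setting. Of the ratios not called, 4 in the T gate and 23 over all gates passed the fold under at least 1 setting. Dapl1 in the Foxp3 gate reversed in thinned cells, to a log2 ratio of 1.81 both for IR_HSO against control (-3.06 as measured) and for IR_HSO against IR (-1.13), where IR and control held 0 Dapl1 UMIs. Centring on the median of all genes, a shift of 0.14 in IR_HSO against control and 0.10 in IR against control, gave 5 of the 7 genes as lower in IR_HSO than in control in place of 3. It moved the share of higher genes among all called from 73.2% to 59.1% in IR_HSO against control and to 63.0% in IR against control. Counts over all genes moved with the filter: without it, 3128 genes were higher and 1137 lower in IR_HSO against control (1818 and 667 with it), 2041 and 830 in IR against control (1092 and 400), and 1160 and 772 in IR_HSO against IR (681 and 497). Thinning gave 1688 higher genes in IR against control. The other total for scaling gave 1061 higher genes in IR_HSO against IR and a share of 68.6% against 57.8%. The causes were not tested. No paired analysis was possible because each group has 1 library. Leaving out the T-gated barcodes with Ncr1 and dropping the mitochondrial limit were chosen after seeing the data. Depth limits Dapl1 in Foxp3-gated cells and Igfbp4 in control NK cells, where 1 UMI was counted. It also limits Igfbp4 in thinned Foxp3-gated cells, where control held 1 UMI.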
